A study of Mus musculus with 12 samples.

Results

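Embryos carrying 2 whirligig copies of Chd7 were compared with embryos carrying 1 copy, to describe what loss of the second functional copy added to the expression profile. The comparison used every array with either genotype, 4 of Chd7Whi/Whi (homozygous) and 4 of Chd7Whi/+ (heterozygous), 8 of the 12 arrays in the study. The other 4 arrays, of wild type embryos, entered the fit for the shared estimate of the spread and are given as the background. All embryos were female, on embryonic day 9.5, on a mixed C3HeB/FeJ background, and came from matings between heterozygotes. Whole embryos were dissected from the yolk sac, and their RNA, matched for integrity, was labelled with Cy3 and hybridised to one-colour Agilent mouse arrays. The labels call the homozygous group a Chd7 knockout and call the arrays of a genotype biological replicates, without saying whether an array holds 1 embryo or a pool, so p-values measure the spread between these samples.

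Chd7 is an ATP-dependent chromatin remodeller of the chromodomain helicase family that acts mostly at enhancers. Whirligig is a chemically induced allele with a premature stop codon, carried in every cell of the embryo. Loss of a single functional CHD7 copy in humans causes CHARGE syndrome, which affects the eye, heart, choanae, growth, genitalia and ear, and mice with a single functional copy circle because of inner ear defects. Mouse embryos with no functional copy die in mid-gestation. The stage examined is that of neural crest migration, somite formation along the elongating trunk and early neurogenesis.

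Levels are log2 processed signals relative to the 75th percentile of each array, so 0 is that percentile and a dim probe is far below 0. A gene was represented by its brightest probe and tested when at least 1 genotype had that probe well above background on its 4 arrays. This admitted 22568 genes and unnamed transcripts. Before scaling, the 75th percentile lay between 1095 and 1721 intensity units on the 8 arrays, and 70.3% to 74.7% of probes were well above background. No spot was saturated. Profiles correlated between 0.987 and 0.994 across the genotypes, 0.990 to 0.995 within homozygous and 0.986 to 0.992 within heterozygous arrays. Xist was well above background on 8 of 8 arrays, and Eif2s3y, Kdm5d, Uty and Ddx3y on 0 of 8, which matched the labelled sex. Markers of neural tube, mesoderm, heart, endothelium, blood and visceral endoderm were well above background on 7 or 8 of the 8 arrays. Among placental markers Prl3d1 was so on 8 of 8 arrays, and Tpbpa and Prl8a2 on 0 of 8. Among macrophage markers Csf1r, Mrc1 and Adgre1 were so on 8 of 8, and C1qa on 3 of 8. No probe was matched to Chd7 through the gene table, so its level was not analysed here, and it may be among the unnamed transcripts tested.

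The second whirligig copy was accompanied by few differences that passed the test. By limma with Benjamini-Hochberg adjustment 3 transcripts fell, 0.0133% of those tested, and none rose (0%). At an unadjusted p under 0.05 there were 842 lower and 511 higher, 1353 in all, where 1128 would arise by chance at that level. The 4 homozygous arrays lay wholly below the 4 heterozygous ones for 373 genes (1.65%) and wholly above them for 300 (1.33%). The median log2 difference over all genes was -0.03, with 59.1% below 0, and the median standard error was 0.15. Only 137 genes differed by at least 1 on the log2 scale.

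Vit encodes vitrin, a secreted protein of the extracellular matrix. It was the single called transcript with a gene symbol. Its levels were -5.18, -5.26, -5.17 and -4.77 on homozygous arrays 1 to 4, against -3.95, -3.65, -3.65 and -3.90 on heterozygous arrays 1 to 4. The wild type arrays read -3.10, -2.72, -3.19 and -2.94. The arrays were ordered by the number of whirligig copies, and no array of one genotype reached the range of the next. The difference between homozygous and heterozygous arrays was -1.30 (SE 0.14, n = 4 and 4), 2.47-fold lower, with an adjusted p of 0.00892 by limma. The difference between heterozygous and wild type arrays, which shares the heterozygous arrays, was -0.80.

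The remaining pair of called transcripts could not be matched to a gene symbol. ENSMUST00000001667 read -3.53, -3.86, -3.97 and -3.85 on homozygous arrays and -2.25, -2.22, -2.44 and -2.62 on heterozygous arrays. It was lower by 2.67-fold, a log2 difference of -1.42 (SE 0.13, adjusted p = 0.00353 by limma). AK050844 read -5.27, -5.27, -5.67 and -5.97 on heterozygous arrays and was not well above background on any homozygous array. Its measured means there and on heterozygous arrays were -7.10 and -5.55, and the ratio was at least 2.41-fold, computed against each homozygous array's dimmest signal well above background or the probe's own signal, whichever was higher. AK050844 had an adjusted p of 0.0327 by limma. Both transcripts were also lower on heterozygous than on wild type arrays, by log2 differences of -1.24 and -1.06. Slide 1 held homozygous array 1 and heterozygous arrays 1 and 2. Slide 2 held homozygous array 2 and heterozygous array 3, a single pair. Slide 3 held homozygous arrays 3 and 4 and heterozygous array 4. All within-slide values given here rest on these few arrays. Within slides 1, 2 and 3 the difference was -1.38, -1.60 and -1.07 for Vit, -1.29, -1.42 and -1.29 for ENSMUST00000001667, and -1.77, -1.32 and -1.22 for AK050844.

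**Figure D1:**
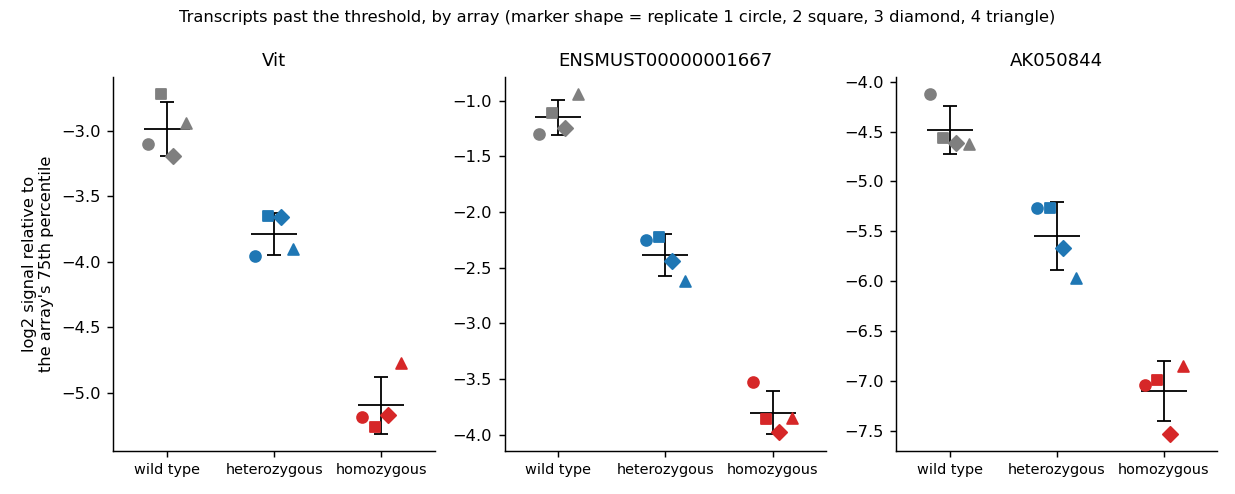
Level of the 3 called transcripts on each array (log2 signal relative to the array's 75th percentile, vertical axis) by genotype, with the mean and SD of 4 arrays as bar and whiskers. For Vit the homozygous arrays lie between -5.26 and -4.77 and the heterozygous arrays between -3.95 and -3.65.

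None of the calls was kept under every setting. ENSMUST00000001667 kept its call with each of the 12 arrays left out in turn, Vit with 9 of 12 and AK050844 with 2 of 12. With array position as a block, with only the 8 arrays of these genotypes in the fit, with the number in the sample title as a block, or with normexp background correction, limma called 0 genes, and Vit's adjusted p ranged from 0.00611 to 0.9999 over all settings.

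A further 9 genes were named by their p alone, 4 lower and 5 higher, and none passed the test (adjusted p between 0.10 and 0.12 by limma). Slitrk6 and Slitrk1 encode leucine-rich transmembrane proteins of neurons that shape neurites, and Slitrk6 is active in the developing inner ear. Slitrk6 read -4.501, -3.89, -4.10 and -4.17 on homozygous arrays and -2.96, -2.31, -3.27 and -3.11 on heterozygous arrays, a difference of -1.25 (SE 0.19). Slitrk1 differed by -0.71 (SE 0.12) and was well above background on 2 of 4 homozygous arrays. Vegfc, the growth factor of lymphatic endothelium, read 0.15, -0.18, 0.05 and -0.33 on homozygous arrays against 0.69, 0.62, 0.52 and 0.86 on heterozygous arrays. Its difference of -0.75 (SE 0.12) stood beside -0.27 for heterozygous minus wild type. Saa2, an acute-phase serum amyloid, differed by -0.90 (SE 0.15). For these 4 genes heterozygous means lay between those of the other genotypes.

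Among the 5 genes with higher values, 3 had heterozygous levels at or below wild type. Cbln1, a secreted organiser of synapses, read -0.73, -0.50, -0.68 and -0.64 on homozygous arrays and -1.49, -1.22, -1.97 and -1.52 on heterozygous arrays, with wild type arrays at -1.47, -1.40, -1.51 and -1.69. It was 1.88-fold higher on homozygous arrays, a log2 difference of 0.91 (SE 0.14), while heterozygous minus wild type was -0.03. Chil1, a chitinase-like secreted protein, differed by 1.03 (SE 0.17) at the second copy and -0.21 at the first, and was well above background on 3 of 4 heterozygous arrays. Efcab6, an EF-hand protein, was well above background on 4 of 4 homozygous arrays and on none of the heterozygous or wild type arrays. It was tested through the homozygous arrays alone, so being well above background on all of them was a condition of its test. Its ratio of homozygous over heterozygous signal was at least 2.15-fold. Rasl10a, a small Ras-like GTPase, had higher values at each copy and differed by 1.13 (SE 0.17) at the second copy and 0.59 at the first. Fam162b differed by 0.71 (SE 0.11) and 0.35.

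**Figure D2:**
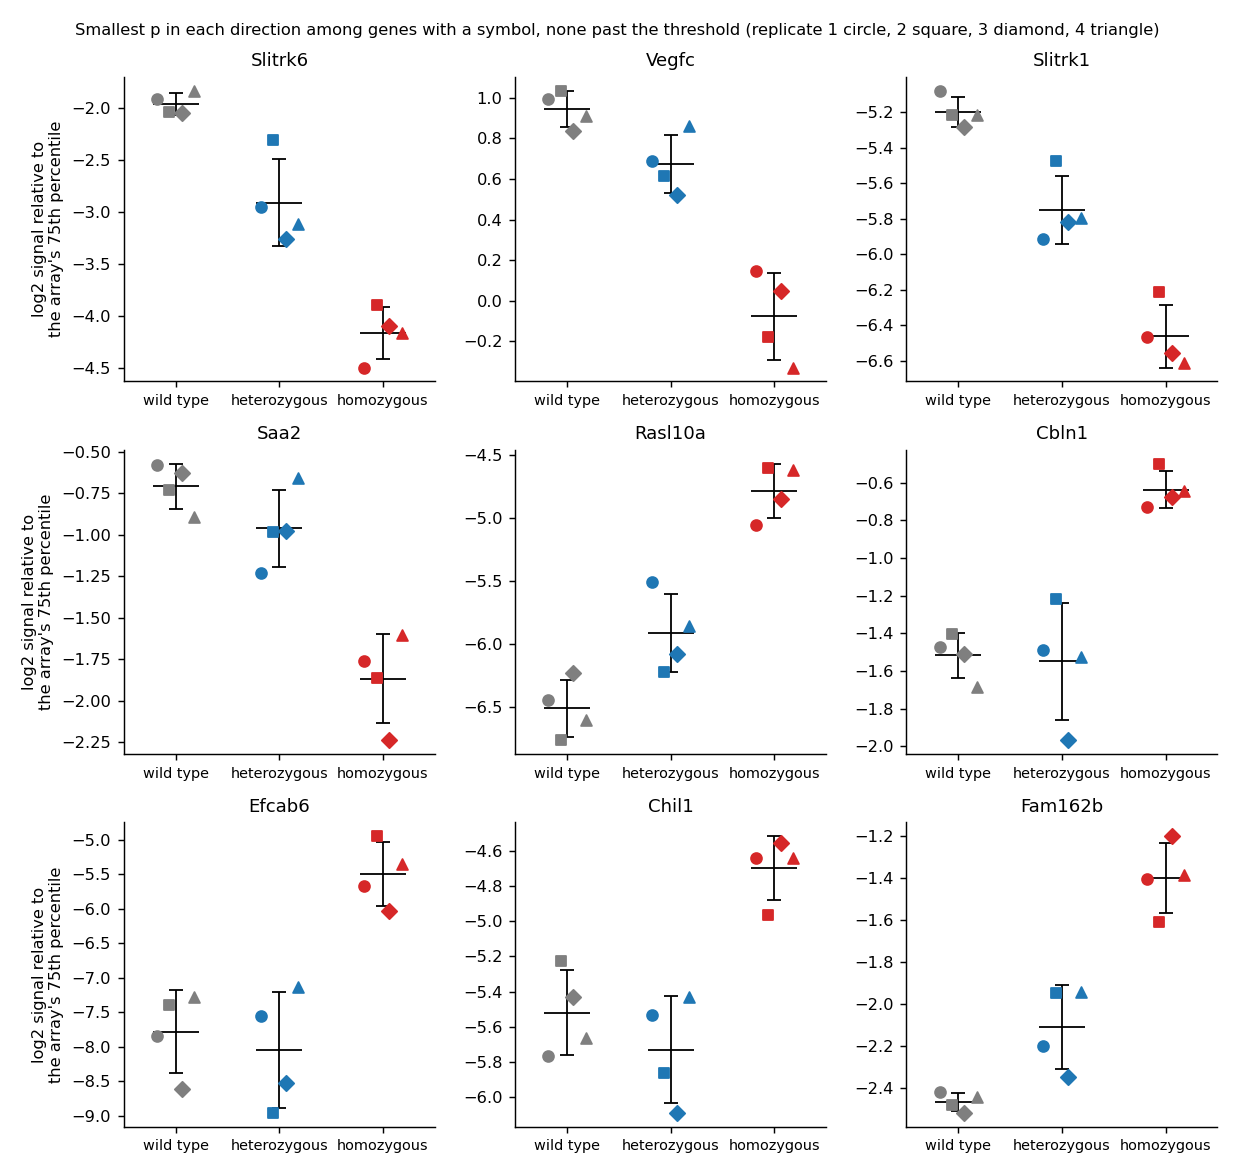
Level on each array (log2 signal relative to the array's 75th percentile) of the 4 lower and 5 higher named genes with the smallest p after Vit, none past the threshold. Homozygous and heterozygous arrays do not overlap for any of the 9 genes, which were picked by p from these same arrays. Over all genes tested, homozygous arrays lie wholly below heterozygous ones for 1.65% and wholly above for 1.33%.

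All 10 genes, Vit included, had homozygous and heterozygous arrays that did not overlap. They therefore necessarily kept their direction within each of the 3 slides and within array positions 2 and 4, which held both genotypes. Position 3 held homozygous arrays and no heterozygous ones. Over the 69 genes and transcripts named here, 60 kept their direction in all 3 slides and 62 in both positions. For 37 of the 69 the genotypes did not overlap, so their direction could not change. A further 16 probes of 13 of these genes were measured, and all 16 differed in the same direction as the brightest probe.

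Lists of genes were then read by their counts and medians, beside the median of -0.03 over all genes. The 30 lists hold 624 genes, of which 566 were tested. Vit was the only member called, so the directions below are of values, not of calls. Part of the semaphorin, adhesion, proneural, sensory and motor neuron, myogenic, skeletal muscle and heart lists was tested through the wild type arrays alone. With each of the 12 arrays left out in turn, the median of 8 lists changed sign and that of 18 more moved by over 1.5 times. The lowest and highest of these medians follow in brackets or in words for such lists. A list level is the mean over its tested genes of each gene's log2 level minus that gene's mean over the 12 arrays. Levels of the 4 homozygous arrays lay wholly below those of the 4 heterozygous arrays for 6 of the 30 lists and above them for none. The 6 were the lists for adhesion, facial mesenchyme, myogenic regulators, somites, retinoic acid, and Slit, Robo, netrin and Unc5. No share for other sets of genes was computed, so the count of 6 carries no test, and 59.1% of all genes were below 0. The nearest homozygous and heterozygous arrays were close for some lists. They were at -0.058 and -0.048 for myogenic regulators, -0.038 and -0.005 for Slit, Robo, netrin and Unc5, and -0.167 and -0.132 for facial mesenchyme.

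Genes that mark position along the trunk had the largest negative medians. Hox genes encode homeodomain transcription factors in 4 clusters, and the order of genes in a cluster follows the order of their expression from the hindbrain to the tail. All 23 genes of Hox paralog groups 1 to 8 were tested and all 23 had lower values on homozygous arrays, with a median of -0.52 and a range from -1.29 for Hoxc6 to -0.17 for Hoxa2. Their list levels were -0.54, -0.35, -0.42 and -0.21 on homozygous arrays 1 to 4. On heterozygous arrays 1 to 4 they were 0.80, 0.13, 0.24 and -0.30. Heterozygous array 4 thus lay within the homozygous range, and the groups overlapped. The median for heterozygous minus wild type, which shares the heterozygous arrays, was -0.01, with 12 of 23 lower. No Hox gene passed the test, and 3 of the 23 had homozygous arrays wholly below heterozygous arrays, beside 1.65% of all genes tested. In bulk RNA of whole embryos, fewer cells of a type and less RNA per cell cannot be told apart.

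Hoxd3, which patterns the neck vertebrae, had the smallest p of the list. It read -0.98, -1.17, -1.30 and -0.92 on homozygous arrays and -0.30, -0.69, -0.30 and -0.51 on heterozygous arrays, a difference of -0.64 (SE 0.14, adjusted p = 0.281 by limma). The wild type arrays read -0.43, -0.56, -0.77 and -0.90, and heterozygous minus wild type was 0.21. Hoxd1 lies next to Hoxd3 in the same cluster. It read -3.95, -3.80, -4.003 and -4.19 on homozygous arrays and -1.54, -3.20, -3.14 and -3.09 on heterozygous arrays, so heterozygous array 1 stood above the other 7. Its difference was -1.24 (SE 0.32) with that array and -0.84 without it.

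Hox paralog groups 9 to 13 mark the lower trunk and tail. Only 6 of their 16 genes were bright enough to be tested, and all 6 had lower values. The median was -1.30 (-1.58 without heterozygous array 2 to -0.60 without heterozygous array 1). It was 0.34 for heterozygous minus wild type, which shares the heterozygous arrays and was not recomputed without heterozygous array 1. With the filter that a probe be well above background on all 12 arrays, 3 genes were tested, all 3 lower, with a median of -1.11. List levels of the 6 were -1.46, -0.94, -0.48 and -0.14 on homozygous arrays 1 to 4. They were 2.77, 0.31, 0.11 and -0.59 on heterozygous arrays 1 to 4. Heterozygous array 4 thus lay below homozygous arrays 3 and 4. On wild type arrays 1 to 4 they were 0.50, -0.50, -0.23 and 0.65. Hoxa9 read -4.81, -4.29, -4.33 and -4.19 on homozygous arrays and -1.90, -3.83, -3.58 and -3.86 on heterozygous arrays, a difference of -1.11 (SE 0.38). Hoxd9 read -6.41, -7.53, -6.70 and -5.15 against -1.505, -3.81, -5.41 and -5.78, a difference of -2.32 (SE 0.81), and was well above background on 2 of 4 homozygous arrays. Heterozygous array 1 was the highest of the 8 for both genes, and without it the differences were -0.65 and -1.45. The other heterozygous arrays lay between -5.78 and -3.81 for Hoxd9.

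The median difference varied with paralog group and cluster. The median was -0.49 over the 12 tested genes of groups 1 to 4, -0.61 over the 11 of groups 5 to 8, and -1.30 over the 6 of groups 9 to 11. Without heterozygous array 1 the medians were -0.39, -0.39 and -0.60, and 12 of 12, 11 of 11 and 6 of 6 genes stayed lower. By cluster, all 8 Hoxa, 9 Hoxb, 6 Hoxc and 6 Hoxd genes were lower, with medians of -0.51, -0.43, -1.12 and -0.92, and of -0.41, -0.25, -0.54 and -0.51 without that array. Within slides 1, 2 and 3 the median of groups 1 to 8 was -0.75, -0.64 and -0.08, and that of the posterior genes was -2.90, -0.70 and 0.35.

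**Figure D3:**
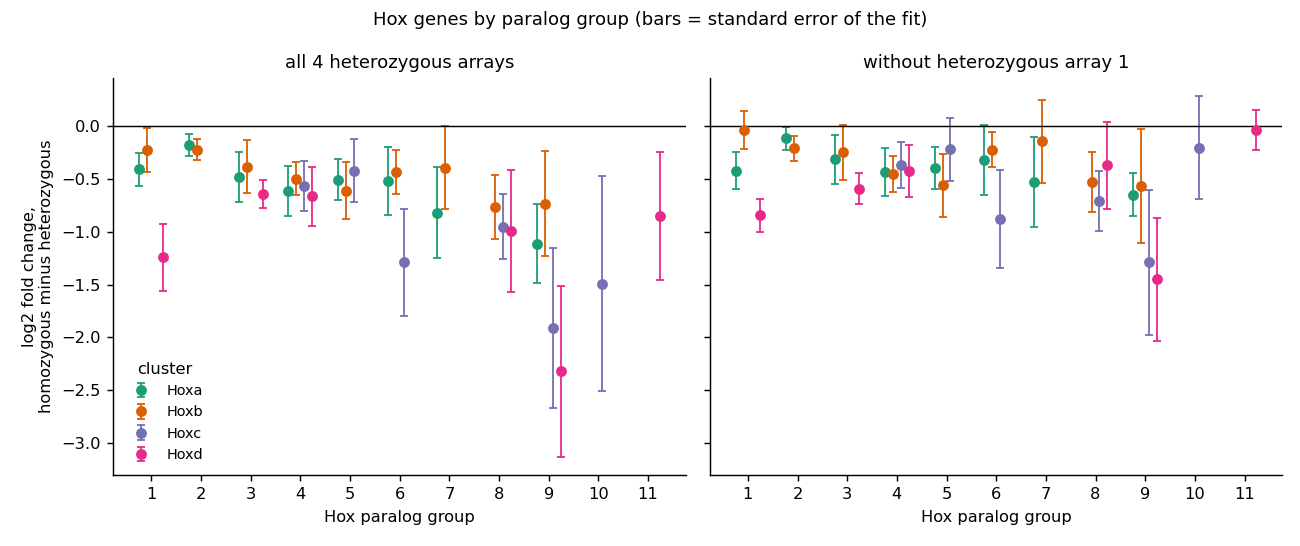
Log2 fold change of homozygous minus heterozygous arrays (vertical axis, bars are the standard error of the fit) for the 29 tested Hox genes by paralog group, with all 4 heterozygous arrays and without heterozygous array 1. All 29 points lie below 0 in both panels, with medians of -0.61 and -0.42.

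The 250 bases before the start of the 4 Hox genes described here are shown because their levels were lower together and 3 of them share the Hoxd cluster. The sequences are from RefSeq on GRCm38.p6, each read 5′ to 3′ on the strand of its gene, with capitals for AGGTCA, the half-site bound by retinoic acid receptors, and TTTATG, a site of Cdx factors, on either strand. Both regulators act on Hox genes in the trunk. The table matched 4 of 4 genes.
Hoxd3, chr2:74711743-74711992, forward strand: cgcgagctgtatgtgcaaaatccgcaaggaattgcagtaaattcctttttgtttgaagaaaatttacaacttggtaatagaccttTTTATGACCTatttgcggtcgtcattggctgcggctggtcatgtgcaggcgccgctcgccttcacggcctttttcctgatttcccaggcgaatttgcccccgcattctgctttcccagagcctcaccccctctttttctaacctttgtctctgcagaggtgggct
Hoxd1, chr2:74762730-74762979, forward strand: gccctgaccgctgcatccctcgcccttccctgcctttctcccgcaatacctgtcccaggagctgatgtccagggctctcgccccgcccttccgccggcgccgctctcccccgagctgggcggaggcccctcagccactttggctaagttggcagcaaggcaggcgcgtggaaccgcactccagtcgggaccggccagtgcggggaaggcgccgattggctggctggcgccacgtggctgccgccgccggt
Hoxd9, chr2:74697513-74697762, forward strand: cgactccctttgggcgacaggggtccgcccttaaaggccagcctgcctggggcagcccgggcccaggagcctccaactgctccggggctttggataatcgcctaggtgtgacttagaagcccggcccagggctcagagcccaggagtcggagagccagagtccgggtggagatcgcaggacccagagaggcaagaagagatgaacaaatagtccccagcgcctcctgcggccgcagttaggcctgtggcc
Hoxa9, chr6:52227371-52227620, reverse strand: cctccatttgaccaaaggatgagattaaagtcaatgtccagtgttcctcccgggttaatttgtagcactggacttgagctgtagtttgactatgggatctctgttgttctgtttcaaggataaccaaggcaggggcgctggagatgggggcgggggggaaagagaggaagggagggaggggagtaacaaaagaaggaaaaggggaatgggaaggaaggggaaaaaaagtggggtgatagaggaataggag
The Hoxd3 stretch held 1 match to each motif, and the capitals run together because the 2 matches overlap. None of the letters searched was found in the other 3 stretches. AGGTCA was in 14.0% of 32851 promoters of the same length and TTTATG in 10.8%. The stretches held 12, 24, 13 and 3 CpG dinucleotides for Hoxd3, Hoxd1, Hoxd9 and Hoxa9, beside a median of 6 over all promoters. These matches describe the sequence and are not evidence of binding.

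Presomitic and somite genes, which drive the segmentation of the trunk, were lower in 22 of 24 tested genes, with a median of -0.54. The median for heterozygous minus wild type, which shares the heterozygous arrays, was 0.16. Array levels were -0.59, -0.24, -0.33 and -0.40 in homozygotes and 0.85, -0.05, 0.41 and 0.04 in heterozygotes, so the groups did not overlap. Cdx1, a homeodomain activator of Hox genes, read -0.17, -0.03, -0.62 and -0.89 on homozygous arrays and 0.27, 0.17, 0.20 and -0.01 on heterozygous arrays, a difference of -0.58 (SE 0.16, adjusted p = 0.543 by limma). Meox2, a homeodomain factor of somites and limb muscle, differed by -0.85 (SE 0.22), with overlapping groups.

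Some tail bud genes of this list, T and Cdx2 among them, had differences much nearer 0 without heterozygous array 1. T (brachyury), the T-box factor of tail bud mesoderm, was chosen after its values were seen: it read -2.24, -1.89, -1.88 and -1.97 on homozygous arrays and 1.11, -1.83, -1.55 and -1.65 on heterozygous arrays. Its difference was -1.01 with heterozygous array 1 and -0.32 without it. Cdx4, Cdx2, Mesp2 and Tcf15 were also chosen after their values were seen, and none passed the test. Cdx4 gave differences of -2.60 with heterozygous array 1 and -1.81 (SE 0.71) without it, and Cdx2 of -0.94 and -0.29 (SE 0.28). Mesp2, which marks the segment about to form, differed by -2.08 and -1.86 (SE 0.67). Tcf15, a factor of epithelial somites, differed by -0.45 and -0.51 (SE 0.16). Without that array their adjusted p lay between 0.698 and 0.948 by limma. Over the whole list 22 of 24 genes stayed lower without heterozygous array 1, and the median was -0.41.

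Retinoic acid, made in the somites and broken down ahead of and behind them, regulates Hox genes. Of its 18 synthesis, breakdown and response genes 16 had lower values, with a median of -0.14 (-0.16 without heterozygous array 2 to -0.06 without heterozygous array 1). Cyp26c1, a retinoic acid hydroxylase of the hindbrain, read -5.72, -5.74, -5.45 and -6.18 against -4.71, -5.36, -5.05 and -4.05, a difference of -0.98 (SE 0.28, adjusted p = 0.543 by limma). Aldh1a1, a synthesis enzyme, differed by -0.37 (SE 0.15). Among Wnt ligands and modulators 16 of 26 were lower and the median was -0.13 (-0.23 without homozygous array 2 to -0.02 without heterozygous array 1). Rspo3, a secreted amplifier of Wnt signalling, read -2.15, -2.36, -2.22 and -1.86 against 0.46, -0.88, -1.29 and -1.73, a difference of -1.29 (SE 0.37) with heterozygous array 1 the highest and of -0.85 without it. Rspo2, of the same family, differed by -0.79 (SE 0.34), with overlapping groups.

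Heterozygous array 1 stood apart in the levels of its heart and Hox genes. Its heart list level was -2.59, while the other 3 heterozygous arrays lay between 0.06 and 0.39 and the homozygous arrays between 0.04 and 0.49. The summed signal of the 25 heart genes was 207 to 294 on homozygous arrays, 16.9 to 257 on heterozygous arrays and 182 to 264 on wild type arrays, in units of each array's 75th percentile. Nppa, the atrial natriuretic peptide, was chosen after its values were seen. It read -5.29, 1.71, 1.88 and 1.57 on heterozygous arrays and 2.20, 1.76, 2.35 and 2.49 on homozygous arrays. The same array had the highest level of posterior Hox genes, 2.77, of anterior and middle Hox genes, 0.80, and of presomitic genes, 0.85. The part of these levels in the results above was not tested beyond leaving the array out.

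Heart genes were higher in 20 of 25 on homozygous arrays, with a median of 0.91 (0.13 without heterozygous array 1 to 1.20 without heterozygous array 3). Within slides 1, 2 and 3 the median was 1.96, -0.16 and -0.05, and array 1 lies on slide 1. Tbx5, the T-box factor of atria and forelimb, differed by 0.52 (SE 0.24), and Isl1, a LIM-homeodomain factor of cardiac progenitors and motor neurons, by -0.44 (SE 0.15, adjusted p = 0.708 by limma). Skeletal muscle structural genes had 13 higher and 8 lower values of 21, with a median of 0.10 (-0.12 without heterozygous array 1 to 0.30 without heterozygous array 4). With only the 8 arrays of these genotypes in the fit, 17 were tested, 13 higher and 4 lower, with a median of 0.14. Casq2, the calcium store protein of cardiac and slow muscle, read -4.97, -4.97, -5.30 and -5.17 on homozygous arrays and -5.93, -5.76, -5.54 and -5.84 on heterozygous arrays, a difference of 0.67 (SE 0.13). Myot, myotilin of the sarcomere, was well above background on 0 of the 8 arrays, and on 4 of 4 wild type arrays. It was therefore tested through the wild type arrays alone.

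Leaving out heterozygous array 1 raised the count called by limma from 3 to 6, 5 lower and 1 higher. Vit and ENSMUST00000001667 remained among them. Tecrl, an endoplasmic reticulum protein of heart muscle, read -4.08, -4.38, -4.23 and -4.27 on homozygous arrays and -5.21, -2.79, -2.81 and -2.87 on heterozygous arrays. Its difference was -0.82 with all arrays and -1.41 (SE 0.11, adjusted p = 0.00228 by limma) without array 1. Trdn, triadin of the muscle calcium release complex, differed by -0.85 and -1.75 (adjusted p = 0.0162 by limma), and was well above background on 3 of 4 arrays in each group. Both were lower on homozygous arrays than on heterozygous arrays 2 to 4 and higher than on array 1, while the heart list as a whole was near 0 without that array. Rasl10a and ENSMUST00000050626 were the other transcripts added. These genes were chosen after their values were seen.

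List levels of the cell adhesion genes of neurons and crest did not overlap between the genotypes. They were -0.47, -0.23, -0.26 and -0.25 on homozygous arrays and 0.11, 0.06, 0.08 and 0.08 on heterozygous arrays, and 13 of 17 genes were lower with a median of -0.29 (-0.17 for heterozygous minus wild type). For 6 of the 17 the homozygous arrays lay wholly below, and for 1 wholly above, beside 1.65% and 1.33% of all genes tested. These values include members that were dim on mutant arrays. Over the 14 members well above background on all 12 arrays, 10 were lower with a median of -0.25, 4 lay wholly below and 1 wholly above, and list levels were -0.35 to -0.09 on homozygous and 0.02 to 0.09 on heterozygous arrays. Pcdh10, a protocadherin of axon tracts, read -6.09, -5.82, -5.33 and -5.61 against -4.08, -4.61, -4.97 and -4.65, a difference of -1.14 (SE 0.21, adjusted p = 0.162 by limma). A second Pcdh10 probe differed by -0.87. Cdh7, a cadherin of migrating crest, was not well above background on any homozygous or heterozygous array, while it was so on 4 of 4 wild type arrays. It was therefore tested through the wild type arrays alone. The median of the list was -0.48, -0.29 and -0.42 within slides 1, 2 and 3.

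Axon guidance ligands and receptors were near the median of all genes as lists, with single members lower. Among 20 semaphorin ligands 8 were lower and 12 higher, with a median of 0.03 (-0.02 without homozygous array 3 to 0.04 without homozygous array 1), and 4 had homozygous arrays wholly below heterozygous ones, beside 1.65% of all genes tested. Sema3d, a secreted ligand of neuropilin receptors, read -6.21, -6.45, -5.72 and -5.78 on homozygous arrays and -5.06, -5.15, -5.16 and -4.91 on heterozygous arrays, a difference of -0.97 (SE 0.17, adjusted p = 0.153 by limma). Sema3c, which guides crest into the cardiac outflow tract, differed by -0.58 (SE 0.14), with -0.46 for heterozygous minus wild type. The receptors had a median of 0.10 (0.03 without heterozygous array 1 to 0.11 without homozygous array 4), with 4 of 10 lower. Plxna1 differed by -0.40 (SE 0.16) and Nrp2 by -0.19 (SE 0.09), with overlapping groups.

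Ephrins and Eph receptors had 13 of 20 lower and a median of -0.05 (-0.08 without homozygous array 2 to -0.02 without heterozygous array 2). Epha7, a receptor of the neural tube and somites, read -1.09, -0.77, -0.82 and -0.62 against -0.28, -0.22, -0.27 and -0.07, a difference of -0.61 (SE 0.12, adjusted p = 0.181 by limma). Its 2 further probes differed by -0.74 and -0.26. Ephb1 went the other way, at 0.59 (SE 0.15). The Slit, Robo, netrin and Unc5 genes had 11 of 17 lower and a median of -0.03 (-0.07 without homozygous array 4 to 0.01 without heterozygous array 3). Slit2, the midline repellent, read -1.29, -1.01, -0.998 and -0.85 against -0.36, -0.30, -0.74 and -0.76, a difference of -0.50 (SE 0.16), and the netrin receptor Unc5c differed by -0.54 (SE 0.16).

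Neural crest specifiers were near the median of all genes as a list, with 16 of 30 higher, 14 lower and a median of 0.01 (-0.03 without homozygous array 3 to 0.06 without heterozygous array 2). Twist1, a basic helix-loop-helix factor of cranial mesenchyme, read 0.72, 0.48, 0.56 and 0.87 on homozygous arrays and 1.495, 1.15, 1.34 and 1.10 on heterozygous arrays, a difference of -0.61 (SE 0.12, adjusted p = 0.226 by limma). Tfap2c, an AP-2 factor of ectoderm and crest, read -0.26, -0.09, 0.05 and -0.44 against -0.92, -0.70, -0.84 and -0.56, a difference of 0.57 (SE 0.15). These 2 genes had non-overlapping groups in opposite directions. In both, heterozygous minus wild type had the same sign, -0.32 and 0.43.

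Genes of the pharyngeal arches and facial mesenchyme, which crest cells populate, were lower in 23 of 32, with a median of -0.20 (-0.24 without homozygous array 2 to -0.13 without heterozygous array 2) and -0.13 for heterozygous minus wild type. Alx1, needed for frontonasal mesenchyme, read -3.07, -3.36, -3.34 and -2.99 against -2.21, -1.49, -2.24 and -2.14, a difference of -1.17 (SE 0.21, adjusted p = 0.129 by limma). Prrx1, of limb and facial mesenchyme, differed by -1.05 (SE 0.30), and heterozygous array 4 at -1.19 lay within the homozygous range. Among otic and placode factors 17 of 23 were lower, with a median of -0.19, whereas heterozygous minus wild type had a median of 0.08 and 5 of 23 lower. Fgf10, a ligand that induces the ear, read -3.63, -3.93, -4.19 and -3.91 against -3.27, -3.13, -3.53 and -3.01, a difference of -0.68 (SE 0.15). Dusp6, a phosphatase induced by Fgf signalling, differed by -0.40 (SE 0.14), with overlapping groups.

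Proneural and neurogenesis factors were lower in 18 of 19, with a median of -0.43 at the second copy and -0.28 at the first. Both medians include members tested through the wild type arrays alone. With only the 8 arrays of these genotypes in the fit, 15 were tested. All 15 were lower, with a median of -0.32 at the second copy. Array levels of the 19 were -1.11, -0.56, -0.33 and 0.01 in homozygotes and 0.40, 0.33, -0.03 and -0.59 in heterozygotes, so homozygous array 4 and heterozygous array 4 crossed. Olig3, a basic helix-loop-helix factor of dorsal progenitors, read -2.84, -2.0001, -1.46 and -1.96 against -0.75, -0.91, -1.14 and -0.82, a difference of -1.16 (SE 0.25, adjusted p = 0.294 by limma). Dll3, a divergent Delta protein of somites and neurons, differed by -1.40 (SE 0.50) and by -0.92 without heterozygous array 1. The median of the list ran from -0.70 without heterozygous array 4 to -0.24 without homozygous array 1, and within slides 1, 2 and 3 it was -1.01, -0.52 and 0.17.

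Later neuronal genes had medians nearer 0. Sensory and motor neuron homeodomain factors were lower in 10 of 13 tested, with a median of -0.17 (-0.29 without homozygous array 2 to -0.14 without homozygous array 1), and Pou4f1, the sensory neuron factor, differed by -0.36 (SE 0.15). Early neuron structure genes were lower in 12 of 18, with a median of -0.16 (-0.21 without homozygous array 4 to -0.07 without homozygous array 1). Ntrk3, the neurotrophin receptor TrkC, differed by -0.35 (SE 0.12), and Nefm, a neurofilament, by -0.33 (SE 0.21). Neural tube patterning genes were lower in 18 of 24, with a median of -0.15 (-0.22 without heterozygous array 3 to -0.08 without homozygous array 1). En1, of the midbrain-hindbrain boundary, was higher by 0.91 (SE 0.33), a difference that included heterozygous array 3 at -7.58, and Dbx2 differed by -0.48 (SE 0.20).

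Myogenic regulators and progenitor factors were lower in 11 of 16, with a median of -0.15 (-0.22 without heterozygous array 1 to -0.03 without heterozygous array 4). With only the 8 arrays of these genotypes in the fit, 14 were tested, 9 lower, with a median of -0.09. Myog, myogenin, read -7.38, -6.76, -7.05 and -6.23 on homozygous arrays, of which 2 were well above background, and -4.48, -4.37, -5.53 and -6.31 on heterozygous arrays, of which 3 were. Its difference was -1.68 (SE 0.41, adjusted p = 0.39 by limma), beside -1.80 for heterozygous minus wild type. Myog was well above background on 4 of 4 wild type arrays. It was therefore tested through the wild type arrays alone, and both differences include that condition. Mesenchyme and matrix genes, the list of Vit, were lower in 18 of 26, with a median of -0.15 (-0.18 without heterozygous array 3 to -0.06 without homozygous array 3). Has2, which makes hyaluronan, read 0.77, 0.60, 0.41 and 0.24 against 0.94, 1.30, 0.86 and 1.06, a difference of -0.54 (SE 0.13). Bmp ligands, antagonists and response genes were lower in 13 of 20, with a median of -0.04 (-0.05 without homozygous array 2 to 0.02 without homozygous array 3). Id1, a Bmp response gene, differed by -0.23 (SE 0.08) and the Bmp-binding protein Bmper by 0.34 (SE 0.11).

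Erythroid and visceral endoderm genes varied widely among arrays of one genotype. Erythroid genes were lower in 15 of 16, with a median of -0.37 (-0.63 without homozygous array 3 to -0.14 without homozygous array 2), but their levels were -0.61, -0.90, 0.61 and 0.13 on homozygous arrays and 0.28, 0.63, -0.09 and -0.07 on heterozygous arrays. The embryonic globin Hbb-bh1 differed by -0.62 (SE 0.38) and Hbb-y by -0.78 (SE 0.51). The summed erythroid signal was 151 to 444 on homozygous arrays, 281 to 522 on heterozygous arrays and 179 to 460 on wild type arrays. Visceral endoderm and liver bud genes read 1.94, 0.97, -1.46 and -0.99 on homozygous arrays and gave a median difference of -0.07 (-0.71 without homozygous array 1 to 0.42 without homozygous array 3), and of -0.81 with title number as a block. Dab2 and Lrp2, endocytic proteins of that tissue, differed by 0.37 (SE 0.24) and 0.21 (SE 0.18). The summed signal of this list was 10.3 to 106 on homozygous arrays, 21.8 to 46.1 on heterozygous arrays and 12.2 to 47.4 on wild type arrays.

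Endothelial genes were lower in 16 of 17, with a median of -0.15 (-0.20 without homozygous array 1 to -0.09 without homozygous array 4). Plvap differed by -0.25 (SE 0.13) and Emcn by -0.21 (SE 0.12), both with overlapping groups. Macrophage genes were lower in 6 of 10 tested, with a median of -0.08 (-0.14 without homozygous array 2 to -0.02 without homozygous array 1). The mannose receptor Mrc1 differed by 0.83 (SE 0.29) and the complement gene C1qb by -0.38 (SE 0.24). Trophoblast and decidua genes were lower in 9 of 11 tested, with a median of -0.35 (-0.40 without heterozygous array 2 to -0.18 without homozygous array 4). The placental lactogens Prl3b1 and Prl3d1 differed by -0.37 (SE 0.14) and -0.39 (SE 0.17). The part of these tissues in the results for other genes was not tested.

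**Figure D4:**
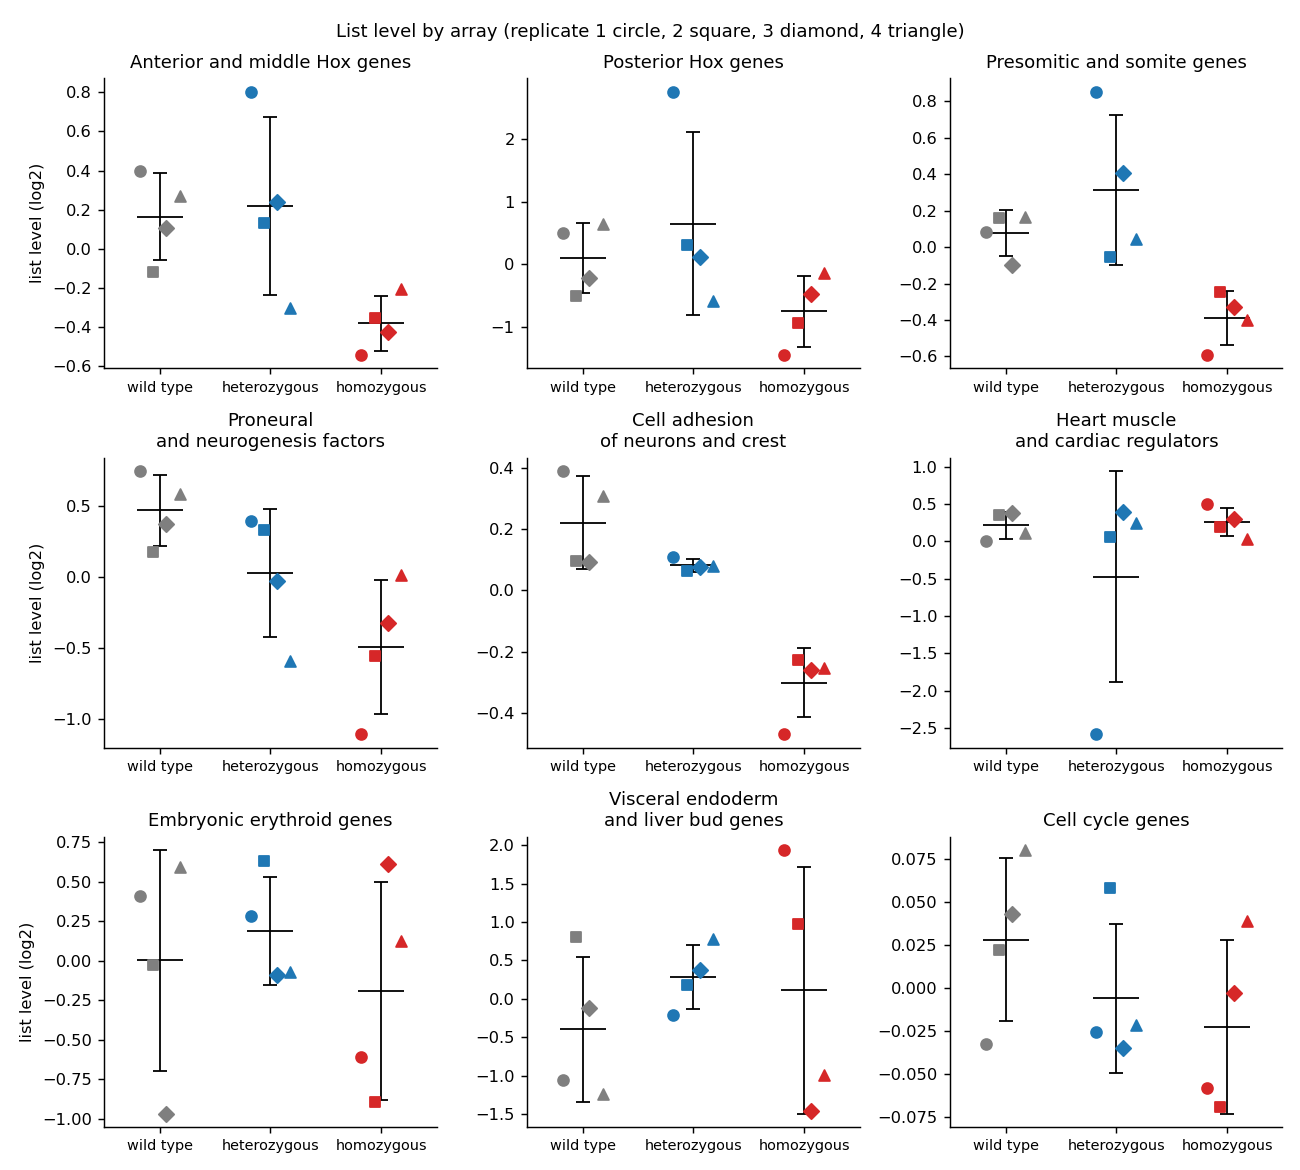
List level on each array (log2, each gene centred on its mean over 12 arrays) for 9 lists by genotype, with the mean and SD of 4 arrays as bar and whiskers. Presomitic and adhesion levels of the 2 mutant genotypes do not overlap, and heterozygous array 1 is at -2.59 for heart and 2.77 for posterior Hox genes.

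Hypoxia and glycolysis genes were higher in 26 of 32, with a median of 0.10, beside 0.34 for heterozygous minus wild type. Their levels were 0.17, 0.14, 0.14 and 0.32 on homozygous arrays and -0.10, -0.30, -0.16 and 0.82 on heterozygous arrays, so heterozygous array 4 stood above the other 7. The median was 0.36 without that array, and -0.02, with 18 of 32 genes lower, without heterozygous array 2. Pdk1, which restrains entry of pyruvate into mitochondria, read 1.5005, 1.62, 1.56 and 1.95 against 1.12, 0.92, 1.06 and 1.99, a difference of 0.39 (SE 0.21), and hexokinase Hk1 differed by 0.35 (SE 0.15). The 19 tested genes of p53 response and cell death had a median of -0.07 (-0.10 without heterozygous array 3 to -0.03 without heterozygous array 4). Perp, an epithelial p53 target, differed by -0.28 (SE 0.11) and Casp12 by 0.91 (SE 0.32). Cell cycle genes had 12 higher and 12 lower of 24 and a median of 0.00 (-0.02 without homozygous array 4 to 0.02 without heterozygous array 2). Mcm6 and Cdc6, both needed to license replication origins, differed by -0.17 (SE 0.09) and -0.13 (SE 0.09).

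**Figure D5:**
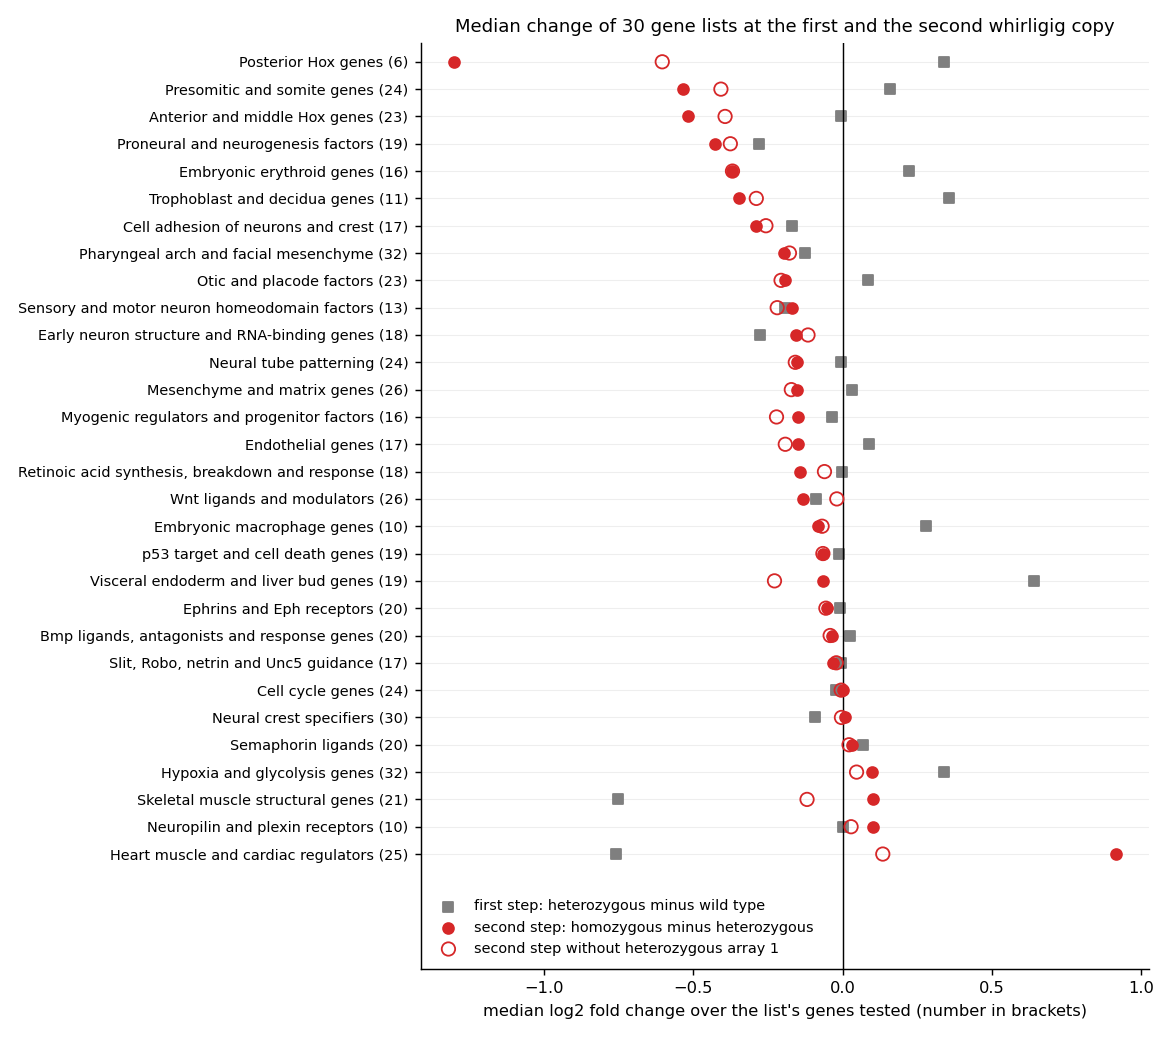
Median log2 fold change of 30 gene lists (number of tested genes in brackets) for heterozygous minus wild type arrays (squares), homozygous minus heterozygous arrays (filled circles) and the latter without heterozygous array 1 (open circles). Posterior Hox genes have the lowest median at the second copy, -1.30, and heart genes the highest, 0.91, and both move toward 0 without that array.

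Whether a gene changed more with the second copy than with the first was tested as the difference of the 2 steps, which share the heterozygous arrays. By limma 0 of 22568 genes (0%) passed, and the smallest adjusted p was 0.533. Without adjustment 1763 genes had a p under 0.05, where 1128 would arise by chance, and 1453 of the 1763 had a lower value at the second step. Over all genes tested, 57.5% had a lower value at the second step. For heterozygous minus wild type alone, 2391 genes were higher and 1092 lower at an unadjusted p under 0.05. The part of the shared heterozygous arrays in these counts was not tested. For Vit the second step exceeded the first by -0.50 (SE 0.24, adjusted p = 0.649 by limma). For Cbln1 it was 0.94 (SE 0.24) and for Chil1 1.24 (SE 0.29), each with an adjusted p of 0.533. Hoxd3, at 0.21 for the first copy and -0.64 for the second, gave -0.85 (SE 0.24) with the same adjusted p. No gene was thus shown to respond more to one copy than to the other.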

How the data were processed

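RNA of 12 whole-embryo samples, all female, at E9.5, 4 per genotype, was measured on one-colour arrays. Per the file headers, the deposited scanner files hold intensity values from Agilent Feature Extraction 10.7.3.1, of which the processed signal is already corrected for background by the authors' software. The deposited value table held the same processed signals, with a largest relative difference of 0. Control spots were removed (1377), leaving 39429 probes, and outlier-flagged spots were left out of averages over spots of a probe. For each array log2 of the processed signal was taken relative to its 75th percentile. Of the probes, 26055 were named through their accession in the RefSeq gene table of GRCm38.p6 (19751 genes) and 13374 kept the file's identifier. The array was annotated on another build, so no array coordinates are given. Number and brightness of arrays, not depth, limit the precision.

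With limma 3.58.1 (R 4.3.3) a mean per genotype was estimated from the 12 arrays together, and p-values were adjusted by the Benjamini-Hochberg method over 22568 genes, with a threshold of 0.05. The procedure was tested on simulated data. Named genes are the called ones without overlap between groups (10 per direction at most), where fewer than 5 pass the 5 with the smallest p in that direction, as values only, and the 2 members of each list with the smallest p; genes outside this rule are marked. The lists, and the comparison itself, were chosen with earlier results of these data known. The fold, the within-slide values and the list medians carry no test. Array slide, position and title number, other background corrections, normalizations, filters, variance models and each array left out were tried as alternatives, and figures were drawn with matplotlib 3.10.9. Normexp used the median spot signal and local background. Replicates are numbered in accession order, and no label says what the number in a sample title marks, so it was used as a block only in an alternative.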

Additional observations from a re-analysis of the deposited data

Results flagged for a closer look

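In 14 of 198 groups of 4 arrays (the homozygous and the heterozygous arrays for each of 69 genes and 30 lists) 1 array lay far from the other 3 by Dixon's ratio of its gap to the whole range. Chance flags about 1 in 20 such groups. The cause was not tested for any of them.

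Heterozygous array 1 was the one apart in 5 cases. It was highest for Dll3 (ratio 0.875, 1.14 against -0.93 to -0.67), Hoxd1 (ratio 0.933, -1.54 against -3.20 to -3.09) and Hoxa9 (ratio 0.858, -1.90 against -3.86 to -3.58), and lowest for the list levels of heart genes (ratio 0.890, -2.59 against 0.06 to 0.39) and skeletal muscle structural genes (ratio 0.868, -1.40 against -0.06 to 0.14). Heterozygous array 2 was highest for Alx1 (ratio 0.873, -1.49 against -2.24 to -2.14), for Dab2 (ratio 0.845, -0.01 against -0.40 to -0.34) and for the cell cycle list level (ratio 0.859, 0.06 against -0.03 to -0.02). Heterozygous array 3 was lowest for Dusp6 (ratio 0.878, 3.03 against 3.39 to 3.44) and En1 (ratio 0.880, -7.58 against -6.02 to -5.80).

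Homozygous array 1 was highest for Tbx5 (ratio 0.937, 0.20 against -0.41 to -0.37) and lowest for the level of the neuronal and crest adhesion list (ratio 0.869, -0.47 against -0.26 to -0.23). Homozygous array 4 was lowest for Bmper (ratio 0.918, -1.63 against -1.33 to -1.31) and for the level of the Slit, Robo, netrin and Unc5 list (ratio 0.867, -0.10 against -0.05 to -0.04).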

How the results depend on the processing

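The count of 3 called genes (0 higher, 3 lower) moved to 0 with normexp background correction, array position as a block, title number as a block, or only the 8 arrays in the fit, and to 1 (lower) with quantile normalization. It was 4 with slide as a block (1 higher, which is Pkp1), 8 with array weights (3 higher, 5 lower; Cbln1, Chil1, Fam162b, Slitrk6 and NM_001081417, a transcript without a matched symbol, were added) and 13 (4 higher, 9 lower) without heterozygous arrays 1 and 4 together, where the difference between the steps had 4 calls instead of 0. Leaving out 1 array gave 1 to 6 calls (0 to 1 higher, 1 to 5 lower): 6 without heterozygous array 1, and 1 without homozygous array 1, heterozygous array 2 or heterozygous array 3. The cause was not tested. None of 1712 recomputed values of named genes changed direction, while 29 lost and 8 gained a call. Of 30 list medians 19 were below 0 and 2 above 0 under all 25 alternatives, and 22 of 750 recomputed medians moved by more than the spread between arrays. Quantile normalization put 51.6% of genes below 0 in place of 59.1%. The deposited value table gave the same calls as the scanner files. Title numbers 50 and 53 recur in homozygotes and heterozygotes, and no label says what they mark. Same-numbered arrays of these genotypes had deviations correlated at -0.08 to 0.02 over 3 pairs, against -0.18 to 0.12 over 13 pairs with different numbers. Over all genotypes the 11 same-numbered pairs ran from -0.32 to 0.29, with 4 over 0.1. The 37 pairs with different numbers ran from -0.34 to 0.24, with 9 over 0.1. So few pairs cannot show whether same-numbered arrays belong together, and the number was a block only in an alternative, which called 0 genes. Dim probes limit Hox groups 9 to 13, of which 10 of 16 genes were not tested.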

Other observations

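Some genes outside the lists and the rule for naming, chosen after their values were seen, had homozygous arrays wholly below or above heterozygous ones without passing the test. Nts, which encodes the neuropeptide neurotensin, read -6.47, -6.20, -5.54 and -6.28 on homozygous arrays, -5.30, -5.29, -5.23 and -5.01 on heterozygous arrays and -3.85, -4.26, -4.17 and -3.98 on wild type arrays, with a difference of -0.92 (SE 0.18, adjusted p = 0.215 by limma) at the second copy and -1.14 at the first. Ptchd1, a patched-domain membrane protein, read -6.46, -6.19, -6.11 and -5.95 on homozygous arrays and -5.33, -5.51, -5.35 and -5.41 on heterozygous arrays, a difference of -0.78 (SE 0.13), beside -0.03 at the first copy. Fndc5, the precursor of irisin, likewise differed by -0.64 (SE 0.14) at the second copy and 0.03 at the first. Pkp1, the desmosomal plakophilin of epithelia, was higher, at -4.03, -3.82, -4.55 and -4.67 on homozygous arrays and -5.63, -5.55, -5.002 and -5.51 on heterozygous arrays, a difference of 1.15 (SE 0.27, adjusted p = 0.362 by limma without a block). With slide as a block Pkp1 passed the threshold.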
